A study of Rattus norvegicus with 4 samples.

Results

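Integrins are cell surface receptors made of 1 alpha and 1 beta subunit, and laminins are the 3-chain glycoproteins that form the core of the basement membrane. The members were the rows of the rat expression table whose symbol is an integrin alpha subunit (Itga), an integrin beta subunit (Itgb1 to Itgb8) or a laminin chain (Lama, Lamb, Lamc), together with the laminin-binding linkers Nid1, Nid2, Hspg2 and Agrn. They came to 41 of 17899 genes: 18 integrin alpha subunits, 8 integrin beta subunits, 11 laminin chains and 4 linkers. Lamb4 was not among the rows used here. Messenger RNA had been measured in 4 bulk libraries of synovium, the lining tissue of the joint, from rats with osteoarthritis. The library AdMSC 1 came from synovium given human AdMSCs, SyMSC 1 from synovium given human SyMSCs, and PBS 1 and PBS 2 from synovium given PBS, a salt buffer. The labels do not spell these abbreviations out, which commonly stand for mesenchymal stem cells of adipose tissue and of synovium. Tissue was taken the day after the cells were injected. Strain, age, how osteoarthritis was produced and whether libraries came from separate animals are not stated, so p-values measure only the spread between these libraries, which may be technical. The titles place PBS 1 with AdMSC 1 (Ad) and PBS 2 with SyMSC 1 (Sy). They add the word inj for both libraries given cells and the word mix for both PBS libraries. The treatment label of the mix libraries is injection with PBS, and what was mixed is not stated in the labels used here. The words inj and mix coincide fully with the 2 groups compared.

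In synovium, integrins divide by the cells that carry them. The beta2 and beta7 integrins are restricted to leukocytes and bind cell adhesion molecules of vessels and other cells, which lets leukocytes stop on endothelium and leave the blood. The beta1 and alpha v integrins of fibroblasts and vessels bind collagen, fibronectin and laminin. Laminins, joined by nidogens, perlecan and agrin to collagen IV, make the basement membrane that surrounds endothelium, mural cells, muscle fibres, fat cells and Schwann cells, while the synovial lining itself has none.

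Values are TPM, a length-normalised share of the transcripts of a library, so levels of different genes can be set side by side, but read depth is unknown. Each library had between 12582 and 13155 genes at 1 TPM or more. Prg4, the lubricin gene of lining fibroblasts, lay between 2448 and 4192 TPM. Changes are log2 differences of TPM + 1, injected (n = 2, 1 library of each cell source) minus PBS (n = 2), tested with limma over 13371 genes, and a gene was called at a Benjamini-Hochberg adjusted p under 0.05. Over all genes tested, 48.4% were called (23.7% higher, 24.7% lower), with a median log2 change of 0.001, and for 78.8% the injected and PBS libraries did not overlap (39.5% with injected above, 39.4% below). Counts of members are given against these shares.

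Leukocyte integrin genes were higher after injection of human cells, and stromal integrin and basement membrane genes were mostly lower. Of 41 members, 8 were called higher, 22 lower, 6 did not pass and 5 fell below the filter of 1 TPM in 2 libraries. Of 8 leukocyte members 6 were called higher and 0 lower (median log2 change 2.19 over 7 tested). Of 17 stromal integrin members 2 were called higher and 10 lower (median -1.07 over 16 tested). The platelet subunit gene Itga2b was lower as well. Of 15 laminins and linkers 0 were called higher and 11 lower (median -1.26 over 12 tested). The 5 untested members, Itgad, Itgb6, Lama1 and Lamb3 among them, stayed under 1 TPM in each library. Itga2b, Itga2, Itga10 and Lamc3 passed the filter through the PBS libraries alone and so had to be lower after injection; of the other 32 members tested, 8 were called higher and 18 lower. Injected and PBS libraries did not overlap for 38 of 41 members, 11 with injected above and 27 with injected below. Without PBS 2, 14 members were called lower and 7 stromal integrins were called. Of the 8 lower calls no longer made, 4 were of genes that then fell below the filter and were not tested (Itga2b, Itga2, Itga10 and Lamc3), and 4 missed the threshold (Itga11, Itgb8, Lama3 and Lama4). Of the 5 stromal integrins no longer called, Itga2 and Itga10 were not tested, and Itga11, Itgb8 and Itga6 missed the threshold.

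**Figure D1:**
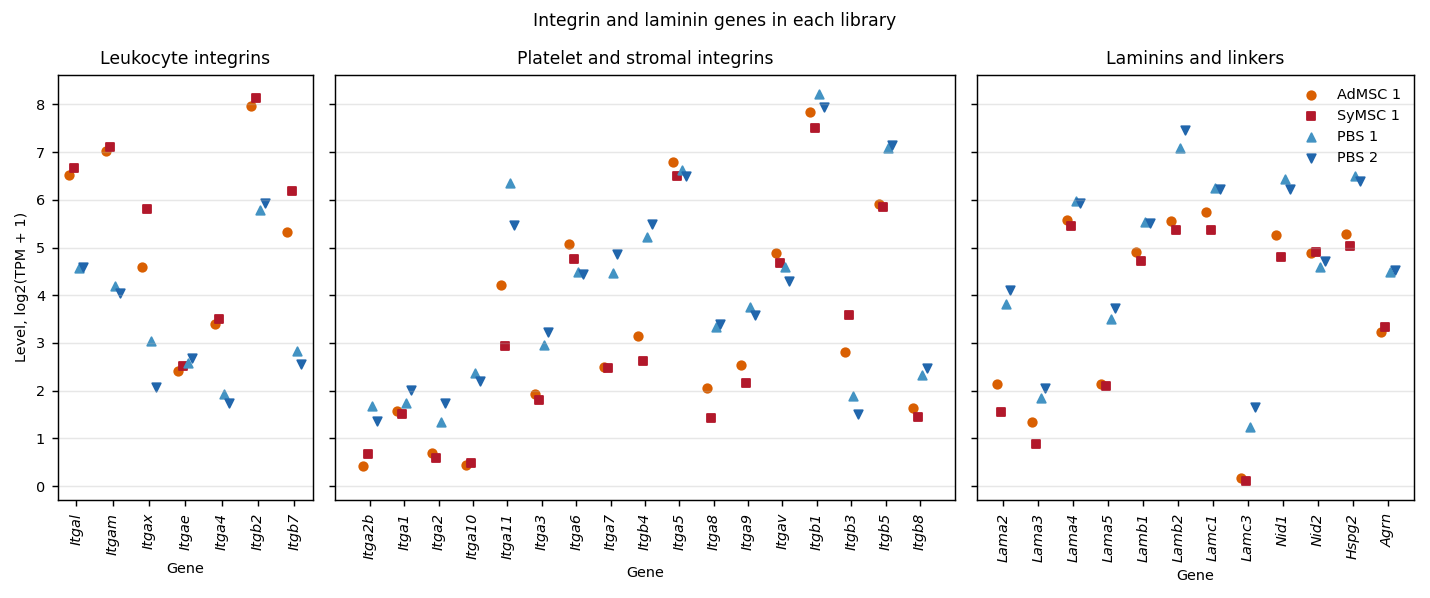
Level of each of the 36 members tested, log2(TPM + 1), in each of the 4 libraries (1 point each); orange circles AdMSC 1, red squares SyMSC 1, light triangles PBS 1, dark triangles PBS 2. In the left panel the injected libraries lie above the PBS libraries for 6 of 7 genes; in the right panel they lie below for 11 of 12.

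The summed level of the 8 leukocyte integrin genes was 546 TPM in AdMSC 1 and 661 TPM in SyMSC 1, against 116 TPM in PBS 1 and 115 TPM in PBS 2. Itgb2 encodes the beta2 subunit shared by the leukocyte integrins LFA-1 and Mac-1. It stood at 249.99 TPM in AdMSC 1 and 281 in SyMSC 1, against 54.5 in PBS 1 and 60.1 in PBS 2 (266 ± 22.3 against 57.3 ± 3.94 TPM, mean ± SD, n = 2; change of 2.19 in log2, SE 0.13, limma adjusted p = 0.000280). Both injected libraries were over 4 times as high as either PBS library, and each arm was tight. Itgam encodes its partner alpha M of Mac-1, the complement and fibrinogen receptor of neutrophils and macrophages. Its levels were 128 TPM in AdMSC 1 and 136 in SyMSC 1, against 17.2 in PBS 1 and 15.6 in PBS 2 (change of 2.94 in log2, SE 0.13, limma adjusted p = 0.000182). Itgal encodes alpha L of LFA-1, which binds ICAM adhesion molecules. It had 90.5 TPM in AdMSC 1 and 100.6 in SyMSC 1, against 22.7 in PBS 1 and 23.1 in PBS 2 (change of 2.01 in log2, SE 0.13, limma adjusted p = 0.000297). For these 3 genes the cell sources lay close together. Itgax encodes alpha X, abundant on dendritic cells and many macrophages, and was less even: 23.0 TPM in AdMSC 1 and 55.2 in SyMSC 1, against 7.25 in PBS 1 and 3.22 in PBS 2 (change of 2.64 in log2, SE 0.59, limma adjusted p = 0.0316). It was no longer called without PBS 1 (limma adjusted p = 0.0932) or PBS 2 (0.15). Itgad, the remaining beta2 partner, had 0.56 and 0.43 TPM in AdMSC 1 and SyMSC 1 and 0.76 and 0.73 TPM in PBS 1 and PBS 2. Itgam, Itgax and Itgad are related genes, so reads shared among them make their values uncertain.

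Itgb7 encodes beta7, which joins alpha4 on gut-homing lymphocytes and alpha E on tissue-resident T cells. It had 39.4 TPM in AdMSC 1 and 71.7 in SyMSC 1, against 6.11 in PBS 1 and 4.91 in PBS 2 (change of 3.06 in log2, SE 0.30, limma adjusted p = 0.00130), and the arm means differed 10.1-fold. The changes of its alpha partner genes were smaller in size, a difference that was not tested. Itga4, whose product binds VCAM1 and fibronectin, had 9.58 TPM in AdMSC 1 and 10.4 in SyMSC 1, against 2.82 in PBS 1 and 2.33 in PBS 2 (change of 1.62 in log2, SE 0.17, limma adjusted p = 0.00106). Itgae, whose product binds E-cadherin, had 4.31 and 4.75 TPM after injection of AdMSCs and SyMSCs and 5.02 and 5.4 TPM in PBS 1 and PBS 2 (change of -0.17 in log2, SE 0.17, limma adjusted p = 0.443). Within a library, Itgb7 was 2.83 (AdMSC 1) and 4.73 (SyMSC 1) times the sum of Itga4 and Itgae, against 0.779 (PBS 1) and 0.635 (PBS 2) times. The corresponding ratio for beta2, the sum of Itgal, Itgam, Itgax and Itgad over Itgb2, was 0.970 and 1.04 after injection and 0.879 and 0.709 with PBS. The alpha and beta messages of the beta2 family were thus near 1 to 1 in the injected libraries, while Itgb7 exceeded the listed partners.

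Promoter sequence is shown for 4 of the 6 leukocyte members that rose, because these genes moved together, and for Itga11 as a gene of the same family that fell. Itgb2 and Itgal, the other leukocyte members that rose, had no entry, nor had Itga6, Itga7, Itgb4, Itgb3, Lamb2, Nid2 and Itgad. The sequences are from RefSeq, build GRCr8, and run from 250 bases before to 50 bases after the annotated start of each gene, 5′ to 3′ on the gene's strand. The windows are chr1:192089342-192089641 (plus strand) for Itgam, chr3:84569765-84570064 (plus) for Itga4, chr7:135239022-135239321 (minus) for Itgb7, chr1:192149799-192150098 (plus) for Itgax and chr8:72041182-72041481 (plus) for Itga11. Capitals mark TGTGGT, a core letter run of RUNX factor sites, or its reverse complement ACCACA.
Itgam: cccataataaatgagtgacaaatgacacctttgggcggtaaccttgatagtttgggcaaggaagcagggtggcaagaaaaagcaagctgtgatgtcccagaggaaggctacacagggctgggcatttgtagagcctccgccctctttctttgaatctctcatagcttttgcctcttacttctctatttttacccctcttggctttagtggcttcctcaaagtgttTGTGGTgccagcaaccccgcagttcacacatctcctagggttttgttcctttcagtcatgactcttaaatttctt
Itga4: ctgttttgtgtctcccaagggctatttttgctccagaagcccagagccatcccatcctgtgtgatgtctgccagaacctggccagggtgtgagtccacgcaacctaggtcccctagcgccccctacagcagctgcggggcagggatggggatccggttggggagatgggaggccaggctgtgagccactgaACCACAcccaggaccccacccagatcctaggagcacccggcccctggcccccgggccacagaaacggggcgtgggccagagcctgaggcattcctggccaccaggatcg
Itgb7: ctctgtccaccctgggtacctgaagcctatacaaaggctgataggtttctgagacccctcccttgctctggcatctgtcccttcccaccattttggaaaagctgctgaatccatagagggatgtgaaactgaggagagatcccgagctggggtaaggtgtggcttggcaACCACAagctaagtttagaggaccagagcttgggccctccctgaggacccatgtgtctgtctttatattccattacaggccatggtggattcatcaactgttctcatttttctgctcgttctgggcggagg
Itgax: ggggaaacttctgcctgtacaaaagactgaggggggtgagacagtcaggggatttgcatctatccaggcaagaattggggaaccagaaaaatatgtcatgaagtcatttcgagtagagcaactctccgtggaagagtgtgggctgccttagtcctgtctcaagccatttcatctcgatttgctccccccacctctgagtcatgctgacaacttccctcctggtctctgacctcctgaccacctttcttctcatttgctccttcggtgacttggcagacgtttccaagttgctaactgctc
Itga11: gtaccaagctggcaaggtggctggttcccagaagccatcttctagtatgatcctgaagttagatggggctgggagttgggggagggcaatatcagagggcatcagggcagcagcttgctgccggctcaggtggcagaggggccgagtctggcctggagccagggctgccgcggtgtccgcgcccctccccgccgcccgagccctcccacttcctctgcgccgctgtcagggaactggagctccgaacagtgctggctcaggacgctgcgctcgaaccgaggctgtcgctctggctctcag

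The match in Itgam lies 25 bases before the start, that in Itga4 59 bases and that in Itgb7 81 bases before it, counted from the first base of the run, and none of the 3 overlaps a match to the other motifs searched. Itgax and Itga11 hold no TGTGGT in this window. Of 31 members with an entry, 4 of 5 leukocyte members (Itgam, Itga4, Itgb7 and Itgae, which did not pass the test) and 2 of 26 other members held TGTGGT on either strand, beside 16.9% of 27457 promoters of the same length. GAGGAA, a core run of PU.1 sites, was held by 2 of 5 leukocyte members and 11 of 26 others (27.5% of all promoters). GGGCGG, a core run of Sp1 sites, was held by 2 of 5 and 15 of 26 (34.9%). The motifs were chosen with the levels known, TGTGGT was capitalised after its count was seen, and a match is a run of letters, not a measured site.

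Genes that activate leukocyte integrins rose with the receptors. Of 15 such genes in the table, 13 were called higher, 0 lower and 2 did not pass (median log2 change 2.19). Parvg, a leukocyte parvin that links integrin tails to actin, had 155 TPM in AdMSC 1 and 178 in SyMSC 1, against 17.0 in PBS 1 and 16.6 in PBS 2 (log2 change 3.24). The Src-family kinase gene Fgr (2.92), the actin regulator gene Coro1a (2.43), the adaptor gene Fyb1 (2.39) and the kinase gene Syk (2.39) followed. Fermt3, which encodes the kindlin of blood cells that binds beta integrin tails, went from 37.1 and 47.1 TPM in PBS 1 and PBS 2 to 205 and 231 TPM in AdMSC 1 and SyMSC 1 (change of 2.35 in log2, SE 0.16, limma adjusted p = 0.000335). Of 10 genes for ligands of beta2 and beta7 integrins, 6 were tested, and of these 4 were called lower and 0 higher: Jam2 (-1.95), F11r (-1.70), Jam3 (-1.69) and Vcam1 (-1.69), adhesion molecules of endothelium and stroma. Icam1, the main LFA-1 ligand, had 52.9 and 50.4 TPM after injection and 67.5 and 62.1 TPM with PBS (log2 change -0.32, limma adjusted p = 0.0724). Cdh1, which encodes the alpha E ligand E-cadherin, was between 0.4 and 1.16 TPM, and Madcam1, the gut vessel ligand of alpha4beta7, was at most 0.04 TPM.

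Many marker genes of leukocytes rose beside these integrins. Neutrophil markers were called higher in 5 of 9 cases and lower in 0, and their summed level was 2304 and 4070.2 TPM after injection against 338 and 102 TPM with PBS. S100a9 (845 and 1521 against 96.7 and 27.8 TPM) and S100a8 (628 and 1149 against 109 and 30.7 TPM) gave much of this. Mmp8, Mmp9, Camp and Ngp did not pass. Camp (log2 change -0.38) and Ngp (-0.28) were highest in PBS 1, at 24.4 and 80.8 TPM. Monocyte and macrophage markers were higher in 6 of 10 cases and lower in 2, with sums of 23444 and 31389.6 TPM against 11021 and 12949 TPM. Lyz2 alone gave 19301 and 27210 TPM of these sums after injection and 8163 and 9237 TPM with PBS. C1qc (log2 change -0.91) and C1qb (-0.65) were the 2 called lower. T and NK cell markers were higher in 5 of 8 cases and lower in 1, with sums of 346 and 402 TPM against 214 and 239 TPM. Much of these sums came from Cd4, the 1 called lower (119 and 125 against 174 and 205 TPM), and Cd8a (109 and 126 against 4.19 and 4.72 TPM). Cd3e had 9.33 and 11.1 TPM after injection and 4.36 and 6.24 TPM with PBS, and Cd3d and Nkg7 did not pass. Mast cell markers went the other way, lower in 3 of 6 cases and higher in 0, with sums of 47.2 and 18.5 TPM against 84.8 and 108 TPM. Ms4a2, among those called, passed the filter through the PBS libraries alone and so had to be lower. No marker of these 4 lists was at 0 in every library. Their part in the integrin values was not tested, and more cells of a type cannot be told apart from more RNA per cell in bulk tissue.

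The balance of beta subunits turned over. Itgb1 encodes beta1, the common partner of the matrix-binding alpha subunits. It had 228 TPM in AdMSC 1 and 179 in SyMSC 1, against 297 in PBS 1 and 245 in PBS 2 (change of -0.41 in log2, SE 0.17, limma adjusted p = 0.0917). That misses the threshold, although Itgb1 was called without AdMSC 1 (-0.59, limma adjusted p = 0.0457). Itgb1 was the most abundant beta subunit in both PBS libraries, with 55.6% and 48.8% of summed beta subunit TPM, while Itgb2 led in AdMSC 1 (42.1%) and SyMSC 1 (46.4%). The ratio of Itgb2 to Itgb1, which does not depend on how the libraries were scaled, was 1.09 in AdMSC 1 and 1.57 in SyMSC 1, against 0.183 in PBS 1 and 0.245 in PBS 2. Its arm means differed by 2.63 on the log2 scale (two-sided exact permutation p = 0.333, the smallest that 2 against 2 libraries can give).

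**Figure D2:**
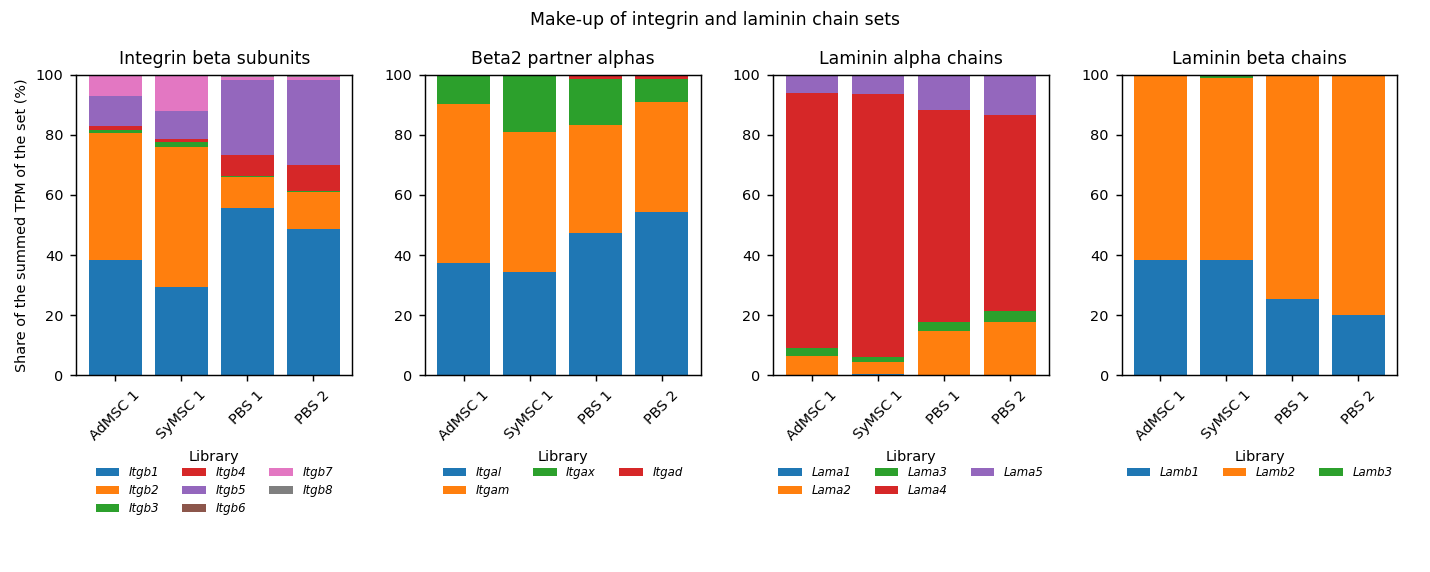
Share (%) of the summed TPM of each set taken by each gene, in the 4 libraries: integrin beta subunits, alpha partners of beta2, laminin alpha chains and laminin beta chains. Itgb2 takes 42.1% and 46.4% of beta subunits in the injected libraries against 10.2% and 12% with PBS, and Lama4 takes 84.7% and 87.3% of laminin alpha chains against 70.5% and 65.3%.

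Beta subunits that pair with alpha v went both ways. Itgb5, a vitronectin receptor subunit, had 59.4 TPM in AdMSC 1 and 56.8 in SyMSC 1, against 134 in PBS 1 and 141 in PBS 2 (change of -1.23 in log2, SE 0.12, limma adjusted p = 0.000801). Itgb3, which also pairs with Itga2b in platelets, had 5.98 TPM in AdMSC 1 and 10.9 in SyMSC 1, against 2.68 in PBS 1 and 1.83 in PBS 2 (change of 1.5 in log2, SE 0.30, limma adjusted p = 0.00825). The platelet alpha subunit gene Itga2b had 0.34 and 0.60 TPM in AdMSC 1 and SyMSC 1, against 2.21 and 1.59 TPM in PBS 1 and PBS 2 (log2 change -0.98, limma adjusted p = 0.0105). Itga2b passed the filter through the PBS libraries alone and so had to be lower, and its call ended without AdMSC 1. Platelet markers were called higher in 1 of 6 cases and lower in 0, beside 23.7% called higher over all genes, and only 3 of the 6 were tested. The 1 called was Gp6, with 5.85 and 7.3 TPM after injection and 0.68 and 0.92 TPM with PBS. Gp6 passed the filter through the injected libraries alone and so had to be higher. The sums of the platelet markers were 59.9 and 92.4 TPM after injection, 50.8 and 56.4 TPM with PBS. Gp1ba and Gp9 were under 1 TPM in each library. Itgb8, which takes part in activation of latent TGF-beta, was low, with 2.12 and 1.73 TPM after injection and 4.03 and 4.58 TPM with PBS (log2 change -0.86, limma adjusted p = 0.0115). Its call ended without SyMSC 1 (0.0610) or PBS 2 (0.0628). Itgb6, a beta subunit of epithelia, was listed at 0 in SyMSC 1 and PBS 2 and at most 0.09 TPM elsewhere.

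Among alpha subunits that bind fibronectin and related ligands, the 2 abundant ones did not pass the test and the 2 scarcer ones fell. Itga5, the fibronectin receptor alpha subunit, had 110 TPM in AdMSC 1 and 89.4 in SyMSC 1, against 97.0 in PBS 1 and 89.9 in PBS 2, so the groups overlapped (change of 0.08 in log2, SE 0.15, limma adjusted p = 0.655). Itgav, the alpha v subunit, had 28.6, 24.7, 23.1 and 18.7 TPM in the same order (change of 0.34 in log2, SE 0.16, limma adjusted p = 0.124). Neither passed the test. Itga8, whose product binds nephronectin on mesenchymal cells, fell from 9.05 and 9.49 TPM in PBS 1 and PBS 2 to 3.17 and 1.70 TPM in AdMSC 1 and SyMSC 1 (change of -1.61 in log2, SE 0.24, limma adjusted p = 0.00310). Itga9, whose product binds tenascin C, fell from 12.6 and 10.99 TPM to 4.82 and 3.46 TPM (change of -1.32 in log2, SE 0.19, limma adjusted p = 0.00285). For both genes the highest injected library lay well below the lowest PBS library.

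Of 4 collagen-binding alpha subunits 3 were called lower, and Itga2 and Itga10 among them passed the filter only through the PBS libraries. Itga11 encodes alpha11, a collagen I receptor of fibroblasts, and was the most abundant of them. It had 17.5 TPM in AdMSC 1 and 6.64 in SyMSC 1, against 80.3 in PBS 1 and 43.6 in PBS 2 (change of -2.34 in log2, SE 0.59, limma adjusted p = 0.0454). Libraries of 1 arm differed about as much from each other in Itga11 as in Itgax, and the call ended without SyMSC 1 (-1.70, limma adjusted p = 0.0847), PBS 1 (-1.91, 0.208) or PBS 2 (-2.77, 0.115). Itga10, a collagen II receptor of cartilage cells, fell from 4.20 and 3.63 TPM to 0.36 and 0.39 TPM (log2 change -1.84, limma adjusted p = 0.000839). Itga2 lay between 0.50 and 2.35 TPM (log2 change -0.91, limma adjusted p = 0.0137) and was not called without AdMSC 1 (0.0508) or SyMSC 1 (0.0719). Itga1, the other widespread collagen receptor alpha subunit, lay between 1.83 and 3.05 TPM and did not pass (limma adjusted p = 0.181). Col1a1, which encodes a chain of the ligand collagen I, had 3404 and 2257 TPM after injection and 12541 and 8181 TPM with PBS (log2 change -1.87).

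The laminin-binding subunits parted from each other. Itgb4, the partner of alpha6 in hemidesmosomes and on Schwann cells and some endothelium, had 7.90 TPM in AdMSC 1 and 5.13 in SyMSC 1, against 36.4 in PBS 1 and 43.9 in PBS 2 (change of -2.47 in log2, SE 0.21, limma adjusted p = 0.000585). Itga7, the laminin receptor of muscle, had 4.67, 4.52, 21.0 and 28.3 TPM in the same order (change of -2.18 in log2, SE 0.18, limma adjusted p = 0.000524). Itga3 had 2.83 and 2.51 TPM after injection and 6.77 and 8.41 TPM with PBS (change of -1.22 in log2, SE 0.19, limma adjusted p = 0.00329). For these 3 genes no injected library reached a PBS library. Itga6, whose product pairs with beta1 or beta4, was instead slightly higher: 32.7 TPM in AdMSC 1 and 26.1 in SyMSC 1, against 21.5 in PBS 1 and 20.7 in PBS 2 (change of 0.45 in log2, SE 0.15, limma adjusted p = 0.0496). That call lay at the threshold and ended without AdMSC 1 (limma adjusted p = 0.185), PBS 1 (0.124) or PBS 2 (0.170), without a filter on low values (0.0789) and with a pseudocount of 0.1 (0.0505). The ratio of Itga6 to Itgb4 was 4.14 and 5.09 after injection and 0.590 and 0.472 with PBS. Schwann cell markers were called lower in 4 of 7 cases and higher in 0, with sums of 74.8 and 46.4 TPM after injection and 273 and 335 TPM with PBS. Sox10, among those called, passed the filter through the PBS libraries alone and so had to be lower. Skeletal muscle markers were called lower in 2 of 8 cases and higher in 0, near the 24.7% called lower over all genes, with sums of 115 and 158 TPM after injection and 1711 and 585 TPM with PBS. Mural and smooth muscle markers were called lower in 8 of 8 cases. Of 5 epithelial markers, Epcam, Krt5 and Krt18 stayed under 1 TPM in each library and Cdh1 reached at most 1.16 TPM. Krt8, a keratin gene and the 1 epithelial marker tested, had 0.42 and 0.37 TPM after injection and 3.29 and 2.14 TPM with PBS (log2 change -1.40, limma adjusted p = 0.00341). Krt8 too passed the filter through the PBS libraries alone and so had to be lower. The part of these cell types in the integrin values was not tested.

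**Figure D3:**
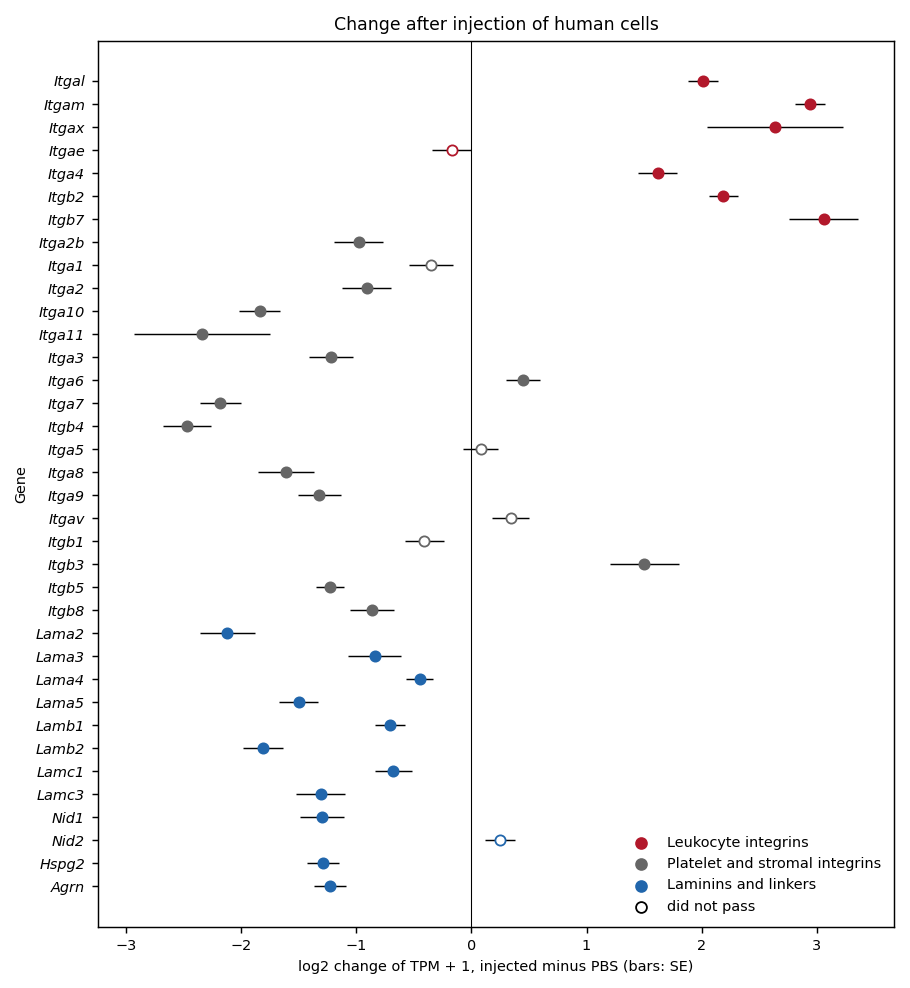
Log2 change of TPM + 1, injected minus PBS, with its standard error, for the 36 members tested; filled points were called by limma and open points did not pass. Leukocyte integrins (red) lie to the right apart from Itgae, laminins and linkers (blue) lie to the left apart from Nid2, and the remaining integrins (grey) run from -2.47 (Itgb4) to 1.5 (Itgb3).

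Of 11 laminin chains 8 could be tested and 8 were called lower, Lamc3 having passed the filter only through the PBS libraries, and the summed level of the family was 184 and 156 TPM after injection against 346 and 388 TPM with PBS. Lama4, the alpha chain of endothelial and fat cell laminin, was the main alpha chain in each library. It had 46.8 TPM in AdMSC 1 and 42.7 in SyMSC 1, against 62.4 in PBS 1 and 60.1 in PBS 2 (change of -0.45 in log2, SE 0.12, limma adjusted p = 0.0267), a small fall that was not called without SyMSC 1 (0.0843), PBS 1 (0.137) or PBS 2 (0.106). Lama2, the alpha chain of muscle and nerve basement membrane, fell far more: 3.43 TPM in AdMSC 1 and 1.93 in SyMSC 1, against 13.1 in PBS 1 and 16.3 in PBS 2 (change of -2.12 in log2, SE 0.24, limma adjusted p = 0.00133). Lama5, a chain of mature vessels and epithelia, had 3.38, 3.26, 10.3 and 12.3 TPM in the same order (change of -1.5 in log2, SE 0.17, limma adjusted p = 0.00124). Lama4 therefore made up a larger share of alpha chain TPM after injection, and the ratio of Lama2 to Lama4 was 0.0734 and 0.0452 after injection and 0.210 and 0.272 with PBS. Lama3, the epithelial alpha chain, had at most 3.18 TPM (log2 change -0.84, limma adjusted p = 0.0241) and was not called without SyMSC 1 (0.124) or PBS 2 (0.116). Lama1, the embryonic alpha chain, was at most 0.19 TPM.

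Of the beta chains, Lamb2 led in each library and fell the more. Lamb2, the beta chain of arterial smooth muscle and neuromuscular junctions, had 45.8 TPM in AdMSC 1 and 40.3 in SyMSC 1, against 134 in PBS 1 and 175 in PBS 2 (change of -1.81 in log2, SE 0.17, limma adjusted p = 0.000683). Lamb1, the more widespread beta chain, had 28.9, 25.4, 45.7 and 44.5 TPM in the same order (change of -0.71 in log2, SE 0.13, limma adjusted p = 0.00614). The ratio of Lamb2 to Lamb1 was 1.58 in both injected libraries, 2.94 in PBS 1 and 3.93 in PBS 2. Lamc1, the gamma chain of most laminins, had 52.8 TPM in AdMSC 1 and 40.5 in SyMSC 1, against 75.5 in PBS 1 and 73.6 in PBS 2 (change of -0.68 in log2, SE 0.16, limma adjusted p = 0.0147; 0.0530 without PBS 1). It made up between 96.3% and 99.1% of gamma chain TPM. Lamc3, which passed the filter through the PBS libraries alone and so had to be lower, fell from 1.36 and 2.16 TPM to 0.13 and 0.08 TPM (log2 change -1.31, limma adjusted p = 0.00393). Lamb3, a beta chain of epithelial laminin, stayed between 0.26 and 0.72 TPM. Summed alpha chains were 1.04 and 1.20 times the summed gamma chains after injection and 1.14 and 1.20 times with PBS, so that ratio overlapped between the groups. Summed beta chains were 1.41 and 1.63 times the gamma chains after injection and 2.33 and 2.87 times with PBS.

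Of the linkers, 3 of 4 were lower. Hspg2 encodes perlecan, the heparan sulfate proteoglycan of basement membranes. It had 37.8 TPM in AdMSC 1 and 31.8 in SyMSC 1, against 88.9 in PBS 1 and 83.0 in PBS 2 (change of -1.29 in log2, SE 0.14, limma adjusted p = 0.00108). Nid1, which ties laminin to collagen IV, had 37.5, 27.03, 86.1 and 74.3 TPM in the same order (change of -1.30 in log2, SE 0.19, limma adjusted p = 0.00262). Agrn, the proteoglycan that organises neuromuscular junctions and binds laminin, had 8.35, 9.03, 21.4 and 22.1 TPM (change of -1.23 in log2, SE 0.14, limma adjusted p = 0.00114). The injected libraries were below the PBS libraries for each of them. Nid2, the relative of Nid1, did not pass the test: 28.4 TPM in AdMSC 1 and 29.2 in SyMSC 1, against 23.0 in PBS 1 and 25.3 in PBS 2 (change of 0.25 in log2, SE 0.13, limma adjusted p = 0.159). The ratio of Nid2 to Nid1 was 0.756 and 1.08 after injection and 0.267 and 0.341 with PBS.

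Other basement membrane genes were mostly lower. Of 20 in the table, 13 were called lower and 1 higher (median log2 change -1.15 over 18 tested). The largest changes among those called were Smoc2 (-2.79) and Smoc1 (-2.78), calcium-binding matrix proteins, Egflam (-2.21), Sparc (-1.98) and Frem1 (-1.66). Frem1 and Col4a5, both among the lower calls, passed the filter through the PBS libraries alone and so had to be lower. Col4a1 and Col4a2, the main collagen IV chains, fell by less (-0.93 and -1.05). Col4a4 was the 1 called higher (0.63), at no more than 1.52 TPM. It passed the filter through the injected libraries alone and so had to be higher. Of 16 genes for matrix ligands of integrins, 4 were called higher and 7 lower. Npnt, among the 7, passed the filter through the PBS libraries alone and so had to be lower. The higher calls lay near the 23.7% called higher over all genes, beside 24.7% called lower. The alpha v ligand gene Spp1 rose (5.32), while Vtn, the vitronectin gene (-3.42), Tgfb3 (-2.24), Fbln5 (-2.24) and Col1a1 fell. Fn1, the fibronectin gene, had 4948 and 4242 TPM after injection and 5312 and 6162 TPM with PBS (log2 change -0.32) and did not pass (limma adjusted p = 0.114). Of 26 focal adhesion genes used in many cell types, 5 were called higher and 10 lower (median log2 change -0.28 over 25 tested). Here the higher calls were no more frequent than the 23.7% over all genes. The largest changes called were Lims2 (-2.80), Parvb (2.02), Tns2 (-1.78), Cd9 (-1.58) and Zyx (1.48). Fermt2, the kindlin gene of stromal cells, fell (-1.08).

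Markers of several cell types that make basement membrane were lower beside these genes. Endothelial markers were called lower in 8 of 9 cases, with sums of 273 and 228 TPM after injection and 713 and 794 TPM with PBS. Mural and smooth muscle markers were called lower in 8 of 8 cases, with sums of 773 and 598 TPM against 2988 and 3894 TPM. Fibroblast markers were called lower in 7 of 10 cases, with sums of 17080.0 and 11628 TPM against 38702 and 31609 TPM. Col1a1, Col3a1, Dcn and Lum, each called lower, gave much of these sums. Prg4 (log2 change -0.26), Pdpn (0.16) and Pi16 (0.07) did not pass. Adipocyte markers were called lower in 2 of 6 cases, near the 24.7% over all genes, with sums of 248 and 286 TPM against 556 in PBS 1 and 1520.1 TPM in PBS 2. Adipoq, Plin1 and Cidec did not pass, and Adipoq in PBS 1 (39.7 TPM) lay between AdMSC 1 (33.4) and SyMSC 1 (43.3). None of these lists had a member called higher or a marker at 0 in every library. TPM is a share of the whole, so a rise of some genes lowers the share of others. The part of these cell types in the laminin values was not tested.

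Each cell source was also set against the PBS library of its own title, 1 library against 1 and so with no test. A gene counted when its TPM + 1 differed at least 2-fold with at least 5 TPM in the higher library. AdMSC 1 differed from PBS 1 in 19 of 29 members that reached this level (6 higher, 13 lower), beside 23.4% of all genes reaching it (11.1% higher, 12.3% lower). SyMSC 1 differed from PBS 2 in 20 of 29 (7 higher, 13 lower), beside 28.0% of all (12.9% higher, 15.1% lower). The 13 lower members were Itga11, Itga3, Itga7, Itgb4, Itga8, Itga9, Itgb5, Lama2, Lama5, Lamb2, Nid1, Hspg2 and Agrn in both arms, and the 6 higher ones were Itgal, Itgam, Itgax, Itga4, Itgb2 and Itgb7, with Itgb3 added in the Sy arm. SyMSC 1 and AdMSC 1 differed from each other in 2 of 22 members, beside 2.22% of all genes (1.48% higher, 0.732% lower): Itgax, 2.40 times as high in SyMSC 1, and Itga11, 0.379 times as high. Itgb7 (1.82 times) and Itgb3 (1.83 times) were also higher in SyMSC 1, below that limit. PBS 2 and PBS 1 differed in 0 of 27 members, beside 2.25% of all (0.959% higher, 1.29% lower). No member went up in 1 arm and down in the other by 1.5-fold or more with at least 5 TPM. Between the PBS libraries, Itgax and Itga11 differed by less than this limit (-0.97 and -0.87 in log2 of TPM + 1, PBS 2 minus PBS 1). The difference of these 2 genes between cell sources has no replicate to be read against.

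**Figure D4:**
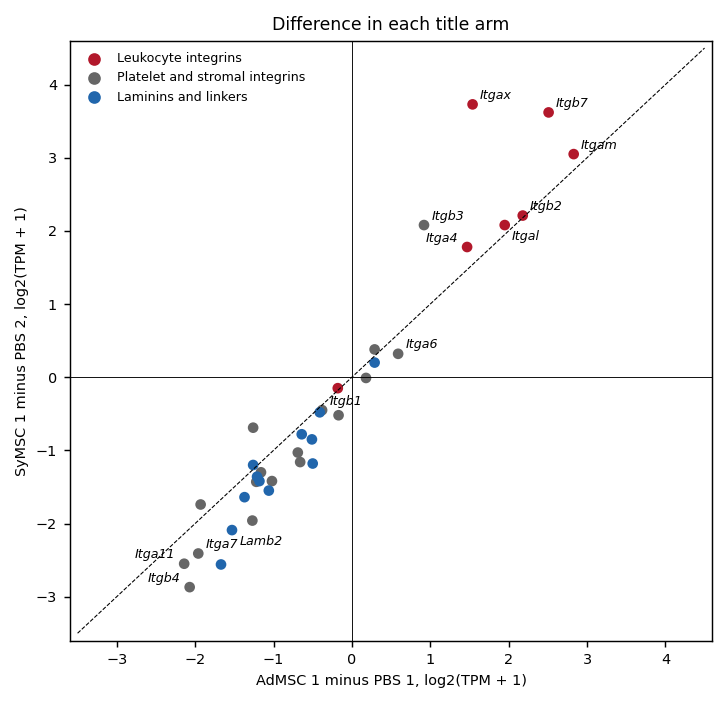
Difference in log2(TPM + 1) between AdMSC 1 and PBS 1 (horizontal) and between SyMSC 1 and PBS 2 (vertical) for the 36 members tested; the dashed line marks equal differences. Itgax (1.54 and 3.73), Itgb7 (2.51 and 3.62) and Itgb3 (0.92 and 2.08) lie above the line. Of the genes called lower, Lama2 (-1.67 and -2.56) and Itgb4 (-2.07 and -2.87) lie below it and Itga2b (-1.26 and -0.69) above it.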

How the data were processed

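The values are TPM made by the authors, per the file header, for 17899 rat genes. HISAT2 2.0.4 and the build Rnor_6.0 are named, per the submitters' processing notes, without their roles. The counting tool, the annotation, whether strand was used, and whether human reads were set apart from rat reads: not given in the sources used here. Since read depth cannot be had from TPM, low values are imprecise by an unknown amount and no counting interval is given.

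Columns were matched to samples by title and grouped by treatment label; 0 sample columns were left unused. Where symbols repeat (5 rows), the symbol went to the row of higher mean. After transformation to log2(TPM + 1), limma 3.58.1 (R 4.3.3) was fitted to genes reaching 1 TPM in 2 or more libraries (moderated by eBayes with trend and robust settings; 2 residual degrees of freedom; Benjamini-Hochberg over all genes tested). The fit was tested on simulated data. Promoters, matched by gene ID for 31 of 41 members, came from the RefSeq table of build GRCr8, which differs from the build of the notes. Every member is accounted for, with values in each library for those reaching 5 TPM; from each pathway list up to 5 called genes with the largest change are named, others being chosen after their values were seen. Members, lists and tests were chosen with earlier results of these data known. The values of 1 member are not reported here.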

Additional observations from a re-analysis of the deposited data

How the results depend on the processing

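Of 30 members called, 21 kept their call and direction wherever they were tested under the alternatives run (median-ratio RLE and upper quartile scaling, no filter, a pseudocount of 0.1, blocking on title arm, omission of each library), and 9 were lost under at least 1, of which 7 only when a library was left out. Of the 21, 19 were tested under each alternative, while Itga10 and Lamc3 fell below the filter without PBS 1 or PBS 2. Where a library was left out, the lone library of its arm was assumed to vary like the other arm. Leaving out 1 library gave between 4286 and 5234 genes called over the whole table (6476 with all libraries) and between 2084 and 2974 called lower (3303). Members called lower then numbered 14 to 21 (22), stromal integrins called 7 to 11 (12), those higher 1 to 2 (2) and those lower 6 to 10 (10). The stromal integrins called higher were also 1 with no filter on low values and 1 with a pseudocount of 0.1, since Itga6 was lost. Itga5, which was not called, ranged from -0.06 without AdMSC 1 to 0.23 on the log2 scale when 1 library was left out, and was below 0 only without AdMSC 1. With a ratio of 1.5 in place of 2, SyMSC 1 differed from AdMSC 1 in 4 members instead of 2.

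The titles share the words Ad and Sy, but no label says that they mark a shared animal or day, and the Ad minus Sy difference of injected libraries correlated with that of PBS libraries at r = 0.117 over 13371 genes, which are not independent. With the title arm as replicate block 30 members were called, 7 higher and 23 lower; Itgax was lost (limma adjusted p = 0.0585), Itgb1 was called lower (0.0288) and Itga11 had an SE of 0.15 in place of 0.59 (limma adjusted p = 0.00284 in place of 0.0454). The Itgb2 to Itgb1 difference was 2.63 within title arms as well. Neither scaling changed a member's call; RLE scaling called 3545 genes higher and 3227 lower over the whole table.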

Other observations

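Genes for laminin receptors other than integrins, and for proteins associated with such receptors, were also mostly lower. Of 12 such genes 10 were called lower and 1 higher, beside 24.7% of all genes tested called lower and 23.7% higher. Bcam, an adhesion molecule that binds laminin alpha5, had 23.7 TPM in AdMSC 1 and 17.5 in SyMSC 1, against 170 in PBS 1 and 226 in PBS 2 (log2 change -3.21, SE 0.20, limma adjusted p = 0.000308). Bcam fell further than Lama5 did. Genes of the complex that ties laminin to dystrophin were each called lower, with unequal log2 changes: the sarcoglycan genes Sgca (-2.22), Sgce (-1.99), Sgcd (-1.04) and Sgcb (-0.48), Dmd, the dystrophin gene (-1.89), and Dag1, the dystroglycan gene (-0.56). Sdc1, a syndecan of plasma cells, epithelia and activated macrophages, was the 1 called higher, from 47.1 and 34.6 TPM in PBS 1 and PBS 2 to 127 and 95.2 TPM in AdMSC 1 and SyMSC 1 (log2 change 1.43, SE 0.21, limma adjusted p = 0.00290).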
